A study of Mus musculus with 11 samples.

Results

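The 35 genes described here mark astrocytes, the star-shaped glia of the brain, or their reactive state. They were selected by symbol from the gene count table with results of the mutator against control comparison of these same mice already known, so their values in that comparison are given as a description. They make up 35 of the 36666 genes of the table, and all 35 passed the filter on low counts that left 17983 genes to be tested. Each of the 35 had counts in every mouse, from 2 counts of Lcn2 in control mouse 3 upward. The study sequenced poly(A) RNA from frozen cerebral hemispheres of 11 male C57/Bl6 mice aged 1 year. It asked how gene expression in the brain differs in Polg mutator mice. The 7 mutators carry the D257A allele on both copies of Polg, which encodes the catalytic subunit of the mitochondrial DNA polymerase, and the allele impairs proofreading. Of the 4 controls, mice 1, 3 and 4 were WT/WT and mouse 2 was WT/D257A, so that 1 control carries a copy of the mutator allele.

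Astrocytes take up glutamate and potassium released by neurons, convert glutamate to glutamine, carry water and ions through endfeet on blood vessels, and supply lipids. After injury, infection or in degeneration they become reactive. Intermediate filaments then increase, secreted proteins such as a serine protease inhibitor and lipocalin are made, and receptors of the interleukin 6 family signal through STAT3 to many of the genes involved.

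The gene counts summed to 121182250, 43693704, 62270188 and 28249345 in control mice 1, 2, 3 and 4. In the mutators the sums ran from 37821243 in mouse 7 through a median of 55741011 in mouse 4 to 91219204 in mouse 6. Levels of a gene across mice are given in CPM, the usual unit of counts scaled to a common library size, with TMM factors that remove differences in composition. A log2 fold change is above 0 where the level is higher in the mutators, and it is given with its standard error (SE). A gene is called where its p-value, adjusted over all 17983 genes tested with edgeR, is under 0.05. The 35 genes together took between 1.20% of all gene counts, in mutator mouse 6, and 1.34%, in control mouse 2 and mutator mouse 3. Whether a lower level of these genes in bulk tissue comes from fewer astrocytes or from less RNA per astrocyte cannot be told apart.

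Control mouse 4 stood apart from the other controls. It had the lowest total count, and its level of Lcn2 was 12.2 CPM where the other controls had 0.0573, 0.161 and 0.0320 CPM. Among the 17983 genes tested, Lcn2 ranked 1 by the log2 gap between control mouse 4 and the next highest control, at 4.27 with 0.5 CPM added to each level. The genes that followed were S100a9 at 3.35, Ch25h at 2.37, S100a8 at 2.13 and Lrg1 at 2.11, which were chosen after their values were seen. S100a8 and S100a9 encode a calcium-binding pair abundant in neutrophils. Of the astrocyte genes, Osmr came next at rank 34 with a gap of 0.92, and Vim followed at rank 279 with 0.34. A list of 10 neutrophil genes, also chosen after values were seen, summed to 8.26, 11.8, 8.17 and 26.2 CPM in control mice 1 to 4 and to between 13.4 and 22.7 CPM in the mutators, with a median of 15.7. Csf3r was the most abundant of them, and 8 of the 10 passed the filter. A list of 10 acute-phase and inflammation genes chosen the same way, of which 7 passed the filter and Ptgs2 was the most abundant, summed to 19.5, 20.7, 21.6 and 47.3 CPM in the controls and to between 21.3 and 26.5 CPM in the mutators, with a median of 25.1. Their part in the results on the astrocyte genes was not tested, and values without control mouse 4 are given for Lcn2, Osmr, Vim and Serpina3n.

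In the comparison of mutators with controls, edgeR called 4 of the 35 genes, 1 higher and 3 lower in the mutators. Over all genes tested it called 223, or 1.24%, with 79, or 0.439%, higher and 144, or 0.801%, lower. DESeq2 called 6 of the 35 genes and, of the 17202 genes to which it gave an adjusted p, 615, or 3.58%, with 243, or 1.41%, higher and 372, or 2.16%, lower. The groups did not overlap for 3 of the 35 genes, against 472 of all genes, or 2.62%. An unadjusted p under 0.05 was found for 10 of the 35 genes and for 2834 of all genes tested. The log2 fold change lay below 0 for 21 of the 35 genes, or 60.0%, and for 49.6% of all genes. Its median was -0.05 over the 35 genes and 0.00 over all genes tested. Since the genes were listed with this comparison known, nothing is read from these shares. Without control mouse 4, edgeR called 93 of 18328 genes, or 0.507%, and among the 35 genes Lcn2, Rlbp1 and Serpina3n. Over the fits that each left out 1 mouse, the genes called ran from 50, without control mouse 2, to 412, without control mouse 1. Of the 35 genes, 2 were called in 7 of these fits and 6 without mutator mouse 3.

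**Figure D1:**
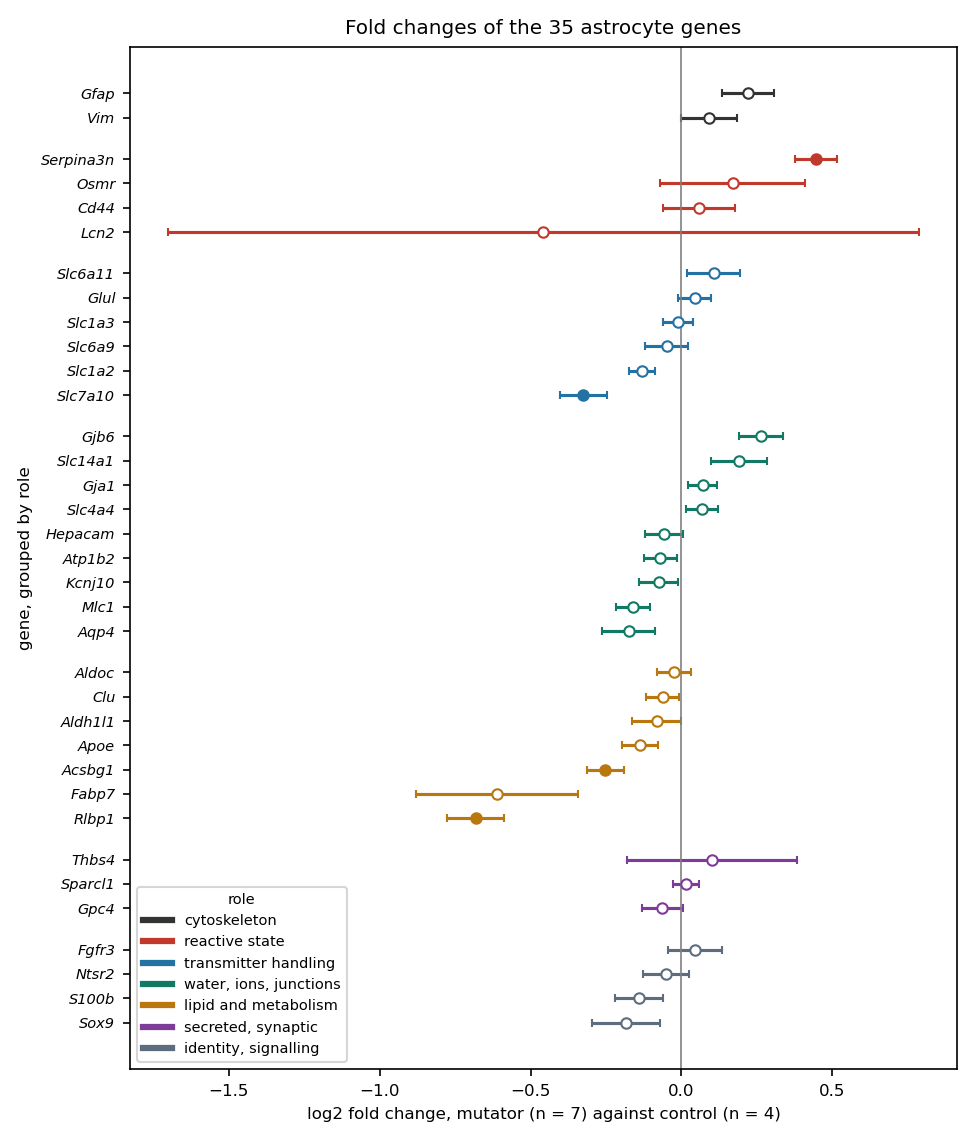
Log2 fold change of each of the 35 astrocyte genes, mutator against control, by role, with bars of 1 SE and filled markers for genes with an adjusted p under 0.05 (7 mutator and 4 control mice). The values run from -0.68 for Rlbp1 to 0.45 for Serpina3n, and Lcn2 at -0.46 has an SE of 1.25.

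The levels of the 35 genes, compared per kilobase of exon as CPM per kb averaged over the 11 mice, covered a wide span. Sparcl1, which encodes a secreted matrix protein that promotes synapses, was the highest at 731 ± 21.5 CPM per kb (SD, n = 11). Apoe, the main lipid carrier of the brain, followed at 529 ± 47.8 CPM per kb, and Glul, the glutamine synthetase, at 486 ± 31.5 CPM per kb. Sparcl1 exceeded Apoe per kb in all 11 mice, while Apoe exceeded Glul in 9 of 11, so Apoe and Glul are closer than their spread. Below them came Aldoc at 249 CPM per kb, Slc1a2 at 209.9, Clu at 199.6 and Atp1b2 at 115. The glutamate transporter Slc1a2 exceeded Clu in 10 of 11 mice. Near the middle, Mlc1 at 57.5 CPM per kb exceeded Gfap at 55.8 CPM per kb in 5 of 11 mice only. At the bottom of the order were 3 of the 4 reactive genes, Osmr at 1.19, Lcn2 at 1.04 and Cd44 at 0.674 CPM per kb, while the reactive gene Serpina3n ranked 24 of 35 at 11.6 CPM per kb. Lcn2 exceeded Cd44 in 5 of 11 mice, and without control mouse 4 its mean was 0.617 ± 0.522 CPM per kb (SD, n = 10), so the order of Lcn2 and Cd44 rests on that mouse. For Apoe, Lcn2, Cd44 and Sox9 the annotation that gives the exon length splits the gene into other bins than the counted files do (25 against 8 for Apoe), so their values per kb rest on a length that may not be the one counted. The lengths of Slc7a10, Slc6a9, Slc1a2 and Aldh1l1 include exon bins with no counts in any mouse, so their values per kb may be too low. Slc7a10, at 10.4 CPM per kb, came next below Serpina3n, so the rank of Serpina3n may not hold. Among 17029 genes tested that have an exon length, Sparcl1 stood at percentile 99.9 and Lcn2 at percentile 25.5.

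The intermediate filament genes were the first of the roles examined. Gfap encodes the glial fibrillary acidic protein, the standard mark of reactive astrocytes. Its level was 194, 237, 192 and 229 CPM in control mice 1 to 4, and in the mutators it ran from 226 through a median of 239.6 to 311 CPM. The groups overlapped, with 4 of 7 mutators above every control. Control mouse 2 and control mouse 4 lay within the mutators' range, and mutator mouse 3 lay far above the others. Mutators exceeded controls by a log2 fold change of 0.22 (SE 0.09), or 16.5%, with an adjusted p of 0.229. Vim, the filament protein vimentin, which endothelial cells also express, was at 30.5, 35.3, 32.1 and 44.8 CPM in the controls and at 31.7 to 41.9 CPM in the mutators, with a median of 38.2. Control mouse 4 was the highest of all 11 mice for this gene. Its log2 fold change was 0.09 (SE 0.09, adjusted p 0.684) with control mouse 4 and 0.21 (SE 0.08, adjusted p 0.256) without it, while without control mouse 1 it was 0.02. Neither filament gene was called by edgeR or by DESeq2, and 1 of them, Gfap, had an unadjusted p under 0.05 in edgeR.

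Of the 4 genes of the reactive state, Serpina3n was the 1 called. It encodes a secreted inhibitor of serine proteases and lies at chr12:105644939-105652539 on the plus strand of NCBIM37. Its level was 18.2, 19.1, 19.3 and 21.6 CPM in control mice 1 to 4, and 23.3, 27.4 and 29.2 CPM at the lowest, median and highest mutator. All 7 mutators lay above all 4 controls, and the highest control was mouse 4. Serpina3n rose by a log2 fold change of 0.45 (SE 0.07), which is 36.2%, with an adjusted p of 0.00270. Without control mouse 4 the log2 fold change was 0.49 (SE 0.08). Over the fits that left out 1 mouse the adjusted p ran from 0.000920 to 0.0210, and the gene was called in all 11. The Serpina3 family has 11 genes in the table, whose sequences are alike. Serpina3n took 94.9% of the family's counts, and the largest total of another family gene over all 11 mice was 677 counts.

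Lcn2 encodes lipocalin 2, which binds bacterial iron carriers and is secreted by reactive astrocytes, by endothelial cells and by neutrophils. Its level was 0.0573, 0.161, 0.0320 and 12.2 CPM in control mice 1 to 4, from 7, 7, 2 and 337 counts. The mutators had 1.16 CPM at the lowest, 1.58 at the median and 3.97 at the highest, from 64 to 220 counts per mouse. All 7 mutators lay between control mouse 4 and the other controls. Control mouse 4 was 3.08 times the highest mutator, and the lowest mutator was 7.18 times the highest of the other controls. With all 4 controls the log2 fold change was -0.46 (SE 1.25) with an adjusted p of 0.900. With the same mice and log2 total count as a covariate it turned to 1.57 (SE 1.16) with an adjusted p of 0.566, control mouse 4 being the mouse of lowest total count. Without control mouse 4 it was 4.75 (SE 0.54), or 26.9-fold higher in the mutators, with an adjusted p of 0.00152. Over the fits that left out each mouse in turn the adjusted p ran from 0.00152 to 0.936, and the gene was called in 1 of the 11. The direction for Lcn2 therefore depends on the covariate and on 1 control, and the call on that control. The sums of the neutrophil and of the acute-phase and inflammation genes were also highest in that mouse. Those lists were chosen after values were seen and get no test, and their part in the result for Lcn2 was not tested.

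Osmr encodes the receptor of oncostatin M, a cytokine of the interleukin 6 family. Its level was 4.39, 4.56, 3.78 and 9.05 CPM in control mice 1 to 4, and 3.75, 6.00 and 7.24 CPM at the lowest, median and highest mutator. Control mouse 4 exceeded all mutators, and of the mutators only mouse 3 lay below the other controls. The log2 fold change was 0.17 (SE 0.24, adjusted p 0.787) with control mouse 4 and 0.49 (SE 0.16, adjusted p 0.214) without it, while without control mouse 3 it was 0.03. Cd44, a receptor for hyaluronan in the matrix, was at 5.16, 3.66, 3.88 and 5.34 CPM in the controls and at 3.90 to 5.39 CPM in the mutators, with a median of 4.74. The groups overlapped along the whole range, and the log2 fold change of 0.06 (SE 0.12) turned to -0.03 without control mouse 2 and to -0.01 without control mouse 3.

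**Figure D2:**
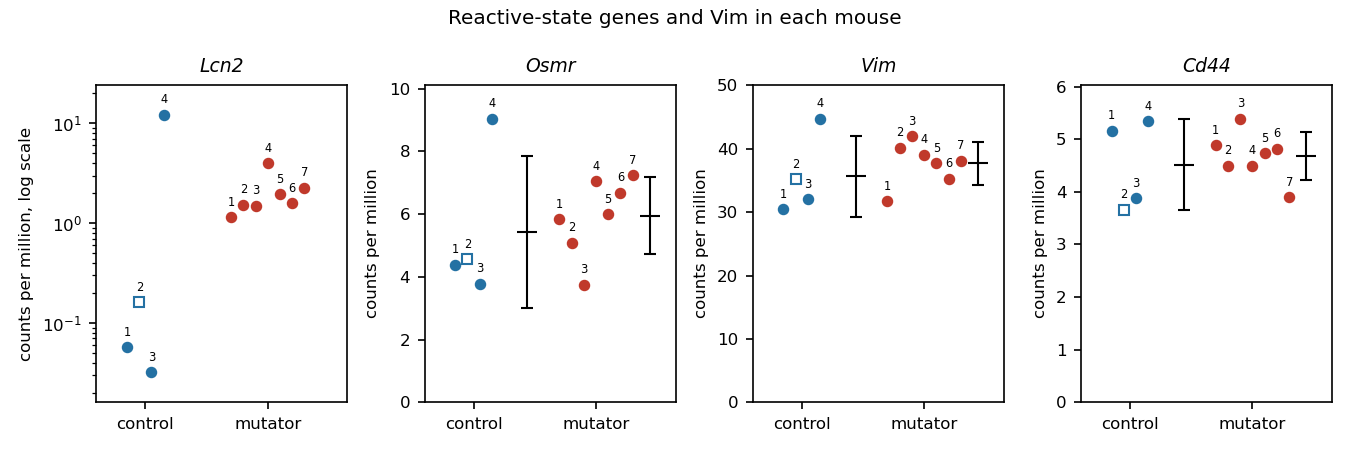
CPM of Lcn2 (log scale), Osmr, Vim and Cd44 in each mouse, with replicate numbers, an open square for the WT/D257A control, and bars of mean ± SD for Osmr, Vim and Cd44 (4 control and 7 mutator mice). Control mouse 4 stands at 12.2 CPM for Lcn2, above the mutators at 1.16 to 3.97 CPM and the other controls at 0.161 CPM or less.

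Over the 6 genes of transmitter uptake and recycling the median of the log2 fold changes was -0.03, and 1 gene was called. Slc7a10 encodes Asc-1, a transporter of small neutral amino acids such as serine and glycine, and lies at chr7:35971404-35989917 on the plus strand of NCBIM37. Its level was 28.3, 32.7, 27.3 and 29.8 CPM in control mice 1 to 4. The mutators had 20.8 CPM at the lowest, 22.7 at the median and 29.7 at the highest. Mutator mouse 3 lay within the range of the controls and the 6 other mutators lay below it. Slc7a10 fell by 0.32 on the log2 scale (SE 0.08) with an adjusted p of 0.0465. In the fits that left out 1 mouse it was called in 2 of 11, namely without control mouse 1 and without mutator mouse 3, and in the others the adjusted p reached 0.241, its value without control mouse 2. Without control mouse 4 the log2 fold change was -0.32 with an adjusted p of 0.140. Of the 8 other settings tried, 4 also ended the call of Slc7a10: upper-quartile factors (adjusted p 0.0529), a mean count of at least 10 (0.0511), only the 3 WT/WT controls, and exon bin counts summed per gene.

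The glutamate transporters gave small differences. Slc1a2 (GLT-1), which clears most glutamate in the forebrain, was at 2924, 3052, 2917 and 2795 CPM in control mice 1 to 4 and ran from 2527 through 2651 to 2798 CPM in the mutators. In 6 of 7 mutators it was below every control, and mutator mouse 7 and control mouse 4 lay side by side. Its log2 fold change of -0.13 (SE 0.04) had an adjusted p of 0.137 in edgeR and of 0.0414 in DESeq2. Over the fits that left out 1 mouse the adjusted p lay between 0.127 and 0.433. Slc1a3 (GLAST), the glutamate transporter that also marks radial glia, had means of 547 ± 37.0 CPM (SD, n = 4) in controls and 543 ± 27.0 CPM (SD, n = 7) in mutators. Its log2 fold change of -0.01 (SE 0.05) was above 0 without control mouse 1, control mouse 2 or mutator mouse 1, at 0.02 at most.

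Glul, which makes glutamine from glutamate and ammonia, was at 1541, 1595, 1538 and 1668 CPM in the controls and ran from 1428 through 1635 to 1813 CPM in the mutators. The mutators spread over a wider range than the controls, from mouse 6 below them all to mouse 4 above them all. Its log2 fold change was 0.04 (SE 0.05) with an adjusted p of 0.748. Slc6a11 (GAT-3), a carrier of GABA, had a log2 fold change of 0.11 with 5 of 7 mutators above every control and mutator mouse 6 below them all. Slc6a9 (GlyT1), a carrier of glycine, had -0.05, with 5 of 7 mutators below every control and mutator mouse 3 above them all. Neither passed the test, with adjusted p-values of 0.598 and 0.796.

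For the 9 genes of water, ion and junction functions the median of the log2 fold changes was -0.06. Among them edgeR called 0, 2 had an unadjusted p under 0.05, and DESeq2 called 1, Gjb6. Gjb6 encodes connexin 30, which couples astrocytes through gap junctions. Its level was 49.6, 47.5, 50.6 and 54.3 CPM in control mice 1 to 4 and ran from 54.0 through 56.6 to 71.4 CPM in the mutators. Mutator mouse 6 lay just under control mouse 4, and the other mutators lay above all controls. The log2 fold change was 0.26 (SE 0.07) with an adjusted p of 0.0799 in edgeR and of 0.0325 in DESeq2. Leaving out 1 mouse at a time gave adjusted p-values from 0.0585 to 0.312. Gja1, connexin 43 and the other main astrocyte connexin, had a log2 fold change of 0.07 with 4 of 7 mutators above every control.

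Aqp4 encodes the water channel of the endfeet. Its level was 148, 139.7, 137 and 138 CPM in control mice 1 to 4 and ran from 111 through 116 to 162 CPM in the mutators. In 6 of 7 mutators it lay below every control, while mutator mouse 3 was the highest of all 11 mice. With that mouse the log2 fold change was -0.18 (SE 0.09, adjusted p 0.358), and without it the fold change was -0.25 with an adjusted p of 0.0145. The adjusted p reached 0.640 when another mouse was left out. Mlc1, a membrane protein of astrocyte junctions that is mutated in a leukoencephalopathy, had a like arrangement, with 6 of 7 mutators below every control and mutator mouse 3 within their range. Its log2 fold change was -0.16 (SE 0.06, adjusted p 0.149) with that mouse and -0.20 (adjusted p 0.0333) without it, and the other fits reached 0.491.

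The remaining genes of this role differed less. Hepacam, which anchors Mlc1 at cell contacts, had a log2 fold change of -0.06, the potassium channel gene Kcnj10 had -0.08, and Atp1b2, a subunit of the sodium pump, had -0.07. Slc4a4, a carrier of sodium and bicarbonate, had 0.07, and Slc14a1, a urea transporter, had 0.19 with 4 of 7 mutators above every control and mutator mouse 7 below them all. The groups overlapped for these 5 genes, and the adjusted p-values lay between 0.320 and 0.711.

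The 7 genes of lipid handling and metabolism all had a log2 fold change below 0, with a median of -0.14, and 2 of them were called lower. The direction was the same for all 7 under each other setting tried, and of the fits that left out 1 mouse only that without control mouse 4 changed it, for Aldoc, to 0.02. Rlbp1 encodes a carrier of retinal best known from the visual cycle of the eye, where Müller glia hold it, and lies at chr7:86519757-86531913 on the minus strand of NCBIM37. Its level was 17.0, 16.8, 16.8 and 16.0 CPM in control mice 1 to 4. The mutators had 8.47 CPM at the lowest, 10.8 at the median and 13.0 at the highest, in mouse 3. All 7 mutators lay below all 4 controls, whose values spread by an SD of 0.476 CPM. Rlbp1 fell by 0.68 on the log2 scale (SE 0.09), which is -37.6%, with an adjusted p of 0.00112. It was called in all 11 fits that left out 1 mouse, with log2 fold changes from -0.74 to -0.63 and adjusted p-values up to 0.00735.

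Acsbg1 encodes an acyl-CoA synthetase that activates long-chain fatty acids and lies at chr9:54452684-54509677 on the minus strand. Its level was 158, 166, 161 and 166 CPM in control mice 1 to 4 and ran from 119.6 through 132 to 157 CPM in the mutators. The groups did not overlap, but mutator mouse 3 at 157 CPM lay next to control mouse 1 at 158 CPM. Acsbg1 fell by 0.25 on the log2 scale (SE 0.06) with an adjusted p of 0.0451. In the fits that left out 1 mouse it was called in 3 of 11, namely without control mouse 1, mutator mouse 3 or mutator mouse 4. In the other 8 the adjusted p lay above 0.05 and reached 0.199, its value without control mouse 2. The call of Acsbg1 was also lost under 4 of the 8 other settings tried, which were upper-quartile factors (adjusted p 0.0522), a mean count of at least 10 (0.0514), only the 3 WT/WT controls, and exon bin counts summed per gene, where it reached 0.231.

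Fabp7 encodes the brain fatty acid binding protein, which also marks radial glia and dividing progenitors. Its level was 15.6, 13.2, 13.0 and 12.2 CPM in control mice 1 to 4 and ran from 4.51 through 8.40 to 14.6 CPM in the mutators. Mutator mouse 2 lay among the controls and the 6 other mutators lay below them. The spread among the mutators was wide, with a coefficient of variation of 37.8% against 10.7% in the controls, and the log2 fold change of -0.61 (SE 0.27) had an adjusted p of 0.313. Apoe was at 1021, 1238, 1044 and 1148 CPM in the controls and ran from 907 through 1004 to 1107 CPM in the mutators. The 4 lowest mutators lay below every control, and the log2 fold change was -0.14 (SE 0.06, adjusted p 0.268). Clu, the chaperone clusterin, had a log2 fold change of -0.06, Aldoc, the aldolase of brain glycolysis, had -0.02, and Aldh1l1, the folate enzyme widely used to label astrocytes, had -0.08. The adjusted p-values of these last genes lay between 0.623 and 0.880, and their groups overlapped.

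**Figure D3:**
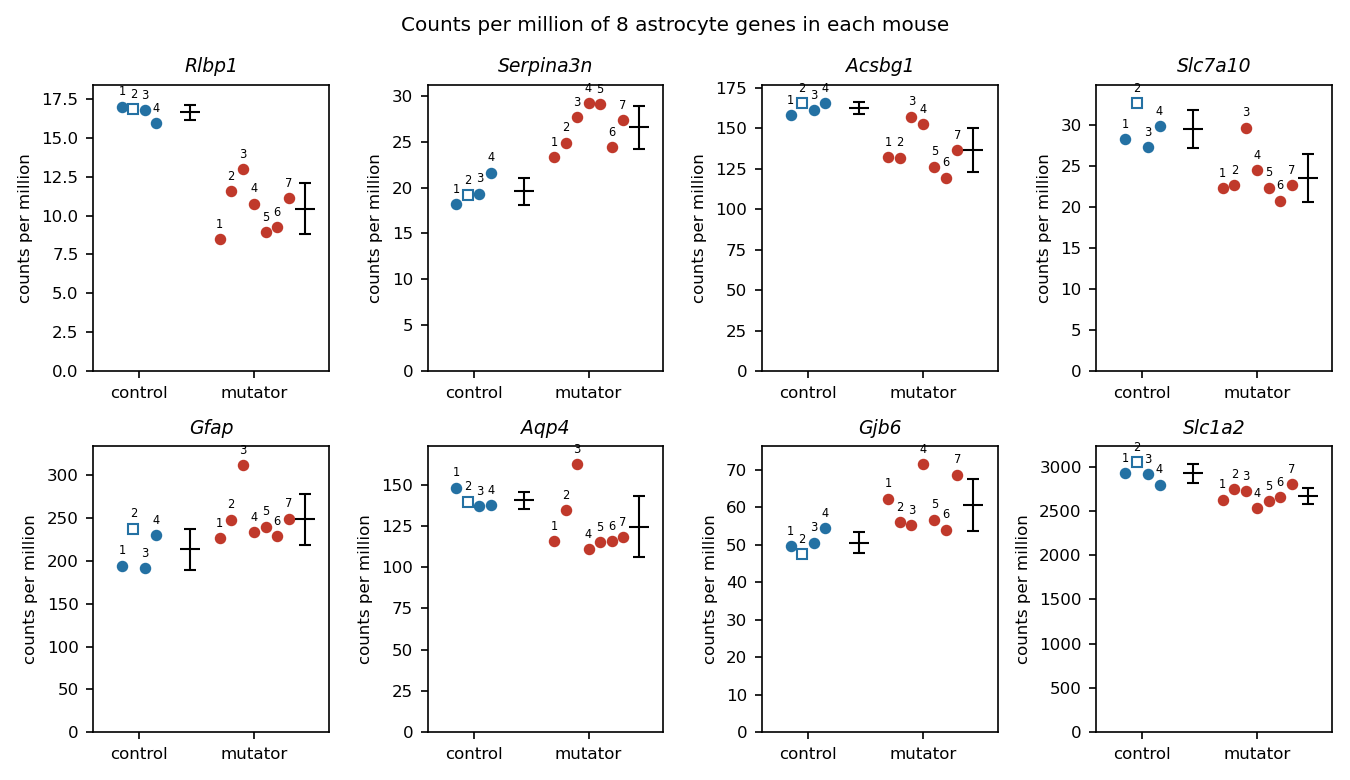
CPM of 8 astrocyte genes in each mouse, with replicate numbers, an open square for the WT/D257A control and bars of mean ± SD (4 control and 7 mutator mice). The mutators do not overlap the controls for Rlbp1 (at most 13.0 against at least 16.0 CPM), Serpina3n (at least 23.3 against at most 21.6 CPM) and Acsbg1 (at most 157 against at least 158 CPM), and mutator mouse 3 is highest among the mutators for Gfap, Aqp4 and Slc7a10.

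Among the 3 secreted proteins that act on synapses the median log2 fold change was 0.02. Sparcl1 was at 2209, 2286, 2185 and 2362 CPM in control mice 1 to 4 and ran from 2200.2 through 2267 to 2368 CPM in the mutators. The groups overlapped over nearly their whole range, with a coefficient of variation of 3.55% in the controls and 2.77% in the mutators. Its log2 fold change was 0.02 (SE 0.04), and it was -0.00 without control mouse 3. Thbs4, a thrombospondin, was at 6.21, 6.33, 6.89 and 7.20 CPM in the controls and at 3.34 at the lowest, 7.16 at the median and 11.4 at the highest mutator. The mutators lay on either side of the controls, with 3 above and 2 below them all, and mutator mouse 4 was the highest. The log2 fold change was 0.10 (SE 0.28, adjusted p 0.902), and it was -0.05 without mutator mouse 4. Gpc4, a glypican that recruits glutamate receptors, had a log2 fold change of -0.06 with an adjusted p of 0.702. Neither edgeR nor DESeq2 called any of the 3 genes, and in edgeR 0 of them had an unadjusted p under 0.05.

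The last role, identity and signalling, has 4 genes with a median of -0.10 on the log2 scale. Sox9, the transcription factor that sets glial fate, was at 30.9, 37.5, 31.8 and 32.1 CPM in control mice 1 to 4. The mutators had 19.9 CPM at the lowest, 30.5 at the median and 33.3 at the highest. Mutator mouse 7 was the lowest and control mouse 2 the highest. The groups overlapped, with 4 of 7 mutators below every control. The log2 fold change was -0.18 (SE 0.11) with an adjusted p of 0.461. S100b, a calcium-binding protein that oligodendrocytes also make, was lower than in every control in 6 of 7 mutators and highest of all mice in mutator mouse 3, with a log2 fold change of -0.14 (SE 0.08, adjusted p 0.408). Ntsr2, a neurotensin receptor of low affinity, had -0.05, and Fgfr3, a receptor of fibroblast growth factors, had 0.04, which was -0.01 without control mouse 1. Of the 4 genes, edgeR and DESeq2 each called 0, and 0 had an unadjusted p under 0.05 in edgeR.

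The mice differed from each other across the 35 genes. Among the 7 mutators, mouse 3 had the highest level for 17 of the 35 genes, or 48.6%, against 16.2% of all genes tested. Mouse 4 had the highest for 12, or 34.3%, against 12.4% of all genes. The lowest level fell to mouse 6 for 17 of the 35 genes, or 48.6%, against 16.9% of all genes. Gfap, Aqp4, S100b and Slc7a10 were among the genes highest in mutator mouse 3. It was low for Osmr, at 3.75 CPM, and for Gpc4, at 14.5 CPM, where it was the lowest mutator. Mutator mouse 6 had the highest total count of the mutators. The part of tissue composition, dissection or library in these differences was not tested.

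Control mouse 2 carries 1 copy of the mutator allele, and its values were set against those of the WT/WT controls. It had the highest level of the 4 controls for 16 of the 35 genes, or 45.7%, against 28.4% of all genes tested. It lay above the range of the 3 WT/WT controls for 16 genes, below it for 2 and within it for 17. Of the 18 genes where it lay outside the WT/WT range, 14 lay on the side away from the mean of the mutators. Over all genes tested, 5493 lay on that side and 4927 on the other. With 1 mouse of this genotype, the genotype and the mouse cannot be told apart.

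Other astrocyte genes from the literature were looked at as a list of 33, of which 32 were in the table and passed the filter. Of these, edgeR called 4, all lower in the mutators, and DESeq2 called 3 higher and 5 lower. In edgeR 6 had an unadjusted p under 0.05 and a higher level and 9 a lower one, and the median log2 fold change was -0.05. Grin2c, a glutamate receptor subunit, had means of 60.0 ± 7.63 CPM (SD, n = 4) in controls and 46.9 ± 3.27 CPM (SD, n = 7) in mutators, and all 7 mutators lay below all controls. It fell by 0.35 on the log2 scale (adjusted p 0.0124, and 0.0905 without control mouse 2). Mfge8, which tags dying cells for uptake, fell by 0.38 (adjusted p 0.0392), Pla2g7, which cleaves platelet-activating factor, by 0.29 (adjusted p 0.0243), and Gldc, which breaks down glycine, by 0.29 (adjusted p 0.0297). All 7 mutators lay below all controls for Mfge8 and Gldc, and 6 of 7 for Pla2g7. Without control mouse 2 or without control mouse 4 none of these last genes was called. The same held without mutator mouse 5, and Gldc was not called without mutator mouse 4 or control mouse 3, nor Mfge8 without mutator mouse 2, mutator mouse 4 or mutator mouse 6. The list summed to 3552, 3743, 3521 and 3788 CPM in control mice 1 to 4 and ran from 3398 through 3457 to 3987 CPM in the mutators, with Ndrg2 the most abundant gene. The 3 genes that DESeq2 called higher, named after their values were seen, are Agt (angiotensinogen), Etnppl (a phospholyase of ethanolamine phosphate) and Itih3 (a hyaluronan-binding inhibitor). All mutators lay above all controls for each of them, with log2 fold changes in edgeR of 0.70, 0.86 and 0.52 and adjusted p-values of 0.0807, 0.0623 and 0.0700.

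Genes of the reactive state were grouped into lists that follow an older division into shared, neurotoxic and trophic responses. The shared list has 13 genes, 6 of which are among the 35, and all 13 passed the filter. Its median log2 fold change was 0.06 with control mouse 4 and 0.26 without it, and the genes called were Serpina3n with it, and Serpina3n, Lcn2 and Cp without it, Cp being named after its values were seen. DESeq2, with all 4 controls, called Serpina3n and Cp. The shared list summed to 284, 333, 284 and 364 CPM in control mice 1 to 4 and ran from 328 through 362 to 427 CPM in the mutators, Gfap being the most abundant. Of the neurotoxic list, 12 of 13 genes were tested and 2 were called, both higher, with a median of 0.27. Fbln5, a protein of elastic fibres, had means of 7.38 ± 1.14 CPM (SD, n = 4) in controls and 13.1 ± 2.82 CPM (SD, n = 7) in mutators, all 7 above all controls. Fbln5 rose by 0.83 on the log2 scale (adjusted p 0.0164), and the adjusted p was 0.113 without control mouse 2 and 0.0642 without control mouse 4. C3, the central complement protein, which microglia also make, rose by 0.87 (adjusted p 0.0177) with 6 of 7 mutators above all controls, and was not called without control mouse 2 or control mouse 3, with an adjusted p of up to 0.117.

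The neurotoxic list summed to 138, 142, 151 and 162 CPM in control mice 1 to 4 and ran from 174 through 175 to 211 CPM in the mutators, Fkbp5 being the most abundant. These sums did not overlap, and the difference of the sums was not tested. Without Fkbp5 they did overlap, at 101 to 122 CPM in the controls and 116 to 149 CPM in the mutators. Of the trophic list, 10 of 12 genes were tested and edgeR called 0, with 1 at an unadjusted p under 0.05 and 0 called by DESeq2. Its gene of lowest p was Sphk1, a sphingosine kinase, with a log2 fold change of 0.29 (adjusted p 0.283). The trophic list summed to 47.5, 47.9, 47.5 and 59.3 CPM in control mice 1 to 4, and from 44.8 through 52.0 to 54.6 CPM in the mutators, and its most abundant gene was Ptgs2, which neurons also express.

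Ligands, receptors and factors of the gp130, STAT3 and Notch pathways, which lead to glial fate and to the reactive state, formed a list of 22 genes, of which 20 were tested. A factor among them, Lhx2, which holds progenitors back from glial fate, was called and fell by 0.26 on the log2 scale (adjusted p 0.0349), with 6 of 7 mutators below all controls. Leaving out control mouse 2, control mouse 4 or mutator mouse 2, 4, 5 or 6 took it above the threshold, to 0.182 at most. DESeq2 called 2 genes of the list, both lower. The median was -0.05, and the sums were 1166, 1212, 1172 and 1186 CPM in control mice 1 to 4 and 1126 to 1194 CPM in the mutators, with a median of 1146 and Jak1 the most abundant. The 6 genes that anchor Aqp4 at the endfeet were all tested, and edgeR called 0 of them, with 2 at an unadjusted p under 0.05 and 0 called by DESeq2. Agrn, an agrin of the vascular basement membrane, had the lowest p, with a log2 fold change of -0.11 (adjusted p 0.284). Their median was -0.02 and their sums were 701, 748, 698 and 690.0 CPM in the controls and 669 to 706 CPM in the mutators, with a median of 689, Agrn being the most abundant.

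The glutamine cycle beyond Glul was followed in 6 genes, of which 2 were called in opposite directions. Slc38a2, which neurons use to take up glutamine, rose by 0.33 on the log2 scale (adjusted p 0.00822), with means of 161 ± 7.19 CPM (SD, n = 4) and 202 ± 18.6 CPM (SD, n = 7) and all 7 mutators above all controls. Slc38a3, by which astrocytes release glutamine, fell by 0.36 (adjusted p 0.00978), with means of 76.8 ± 7.85 CPM (SD, n = 4) and 59.8 ± 5.22 CPM (SD, n = 7) and all 7 mutators below all controls. Slc38a2 was called in all 11 fits that left out 1 mouse, and Slc38a3 in 10, with an adjusted p of 0.0777 without control mouse 2. Another glutamine carrier of the list, Slc38a5, named after its values were seen, stood at 10.7 CPM in control mouse 4, at no more than 2.44 CPM in the other controls and at 1.24 to 2.62 CPM in the mutators.

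Of 6 further secreted genes that act on synapses, edgeR called 1, Chrdl1, by which astrocytes mature glutamate receptors, and DESeq2 called Chrdl1 lower and Sparc higher. Its level had a mean of 15.5 ± 0.476 CPM (SD, n = 4) in controls and of 9.59 ± 1.23 CPM (SD, n = 7) in mutators, all 7 of which lay below all controls. Chrdl1 fell by 0.70 on the log2 scale (SE 0.08, adjusted p 0.000338) and was called in all 11 fits that left out 1 mouse. This change was close in size to that of Rlbp1. The list had a median of 0.07 and summed to 461, 438, 455 and 447 CPM in the controls and 500.2 to 745 CPM in the mutators, with a median of 628. These sums did not overlap, and their difference was not tested. Without Sparc the sums ran from 46.1 to 49.6 CPM in the controls and from 41.7 to 46.3 CPM in the mutators, so the higher sums of the mutators come from that gene. Sparc was the most abundant, a matrix protein that endothelial cells also make, which had a log2 fold change of 0.48 (adjusted p 0.0963) in edgeR with all mutators above all controls, and is named after its values were seen.

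Markers of other cells and regions were taken as whole lists, and their part in the results on the 35 genes was not tested. No marker on these lists was at 0 in all mice. Neuron markers, 9 of 10 tested, summed to 9204, 9948, 9143 and 9768 CPM in control mice 1 to 4 and to 8692, 9064 and 9479 CPM at the lowest, median and highest mutator, with Camk2a the most abundant. Their median log2 fold change was -0.03, and edgeR and DESeq2 called 0, with 3 at an unadjusted p under 0.05 and the lowest p in Slc17a7 at -0.21. The 10 oligodendrocyte markers summed to 5841, 5999, 5276 and 5859.9 CPM in the controls and to 5149, 5797 and 7164 CPM in the mutators, with Mbp the most abundant. The highest of these sums was that of mutator mouse 3, the mouse that was highest for 17 of the 35 astrocyte genes. Their median was -0.16 and Opalin, a late myelin gene, was called and fell by 0.81, with an adjusted p of 0.0385, while DESeq2 called 2, both lower. Opalin was called in 2 of the 11 fits that left out 1 mouse, those without mutator mouse 3 or mutator mouse 5, and its adjusted p reached 0.169. With no filter on low counts, only the 3 WT/WT controls, log2 total count as a covariate or exon bin counts summed per gene, Opalin was not called either.

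The 9 markers of oligodendrocyte precursors summed to 365, 401, 397 and 369 CPM in control mice 1 to 4 and to 314, 336 and 383 CPM at the lowest, median and highest mutator. Olig1 was the most abundant and had the lowest p, at -0.35. The median was -0.08, and edgeR called 0, with 3 at an unadjusted p under 0.05 and 2 called by DESeq2. The 12 microglia markers summed to 427, 498, 408 and 508 CPM in the controls and to 391, 434 and 479 CPM in the mutators, with Csf1r the most abundant. Their median was -0.07, with Cx3cr1 at -0.20 the lowest in p. By edgeR and DESeq2 0 of them were called, and 4 had an unadjusted p under 0.05. The 10 endothelial markers summed to 355, 391, 359.5 and 429 CPM in the controls and to 397, 417 and 491 CPM in the mutators, with Slc2a1 the most abundant. Their median was 0.08, or 0.20 without control mouse 4, and edgeR called 0, with 4 at an unadjusted p under 0.05, Flt1 at 0.36 the lowest in p, and 2 called by DESeq2.

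The 5 markers of choroid plexus, led by Ttr, summed to 554, 693, 514 and 632 CPM in control mice 1 to 4 and to 527, 672 and 755 CPM at the lowest, median and highest mutator. Their median was -0.12, edgeR called 0 with 2 at an unadjusted p under 0.05, and DESeq2 called 1, Clic6, at 0.36 in edgeR. The 5 ependymal markers, led by Foxj1, summed to 18.7, 16.2, 15.4 and 17.6 CPM in the controls and to 15.4, 17.6 and 25.0 CPM in the mutators, where mouse 3 was the highest. Their median was 0.19, both tools called 0, 0 had an unadjusted p under 0.05, and Ccdc153 at 0.26 was the lowest in p. Cerebellar markers, 4 of 5 tested and led by Calb1, which other regions also express, summed to 124, 113, 123 and 125 CPM in the controls and to 109, 124 and 128 CPM in the mutators. Both tools called 0 of them and 0 had an unadjusted p under 0.05, and their median was 0.20. Cbln3, which is specific to cerebellar granule cells, had a log2 fold change of 1.37 (SE 0.67) and reached 4.54 CPM in mutator mouse 3, against 0.545 to 0.630 CPM in the controls. Mutator mouse 2 followed at 2.48 CPM, and without mutator mouse 3 the log2 fold change of Cbln3 was 0.81. Gabra6, another granule cell gene, did not pass the filter and is named after its values were seen. It had 80 counts in mutator mouse 3 and 42 in mutator mouse 2, against at most 8 in any other mouse. By the study's methods the cerebellum had been taken off before freezing, and the part of cerebellar RNA in the levels of these mutators was not tested. Striatal markers, 5 of 5 tested and led by Ppp1r1b, summed to 510.3, 635, 519 and 521 CPM in the controls and to 423, 502 and 534 CPM in the mutators. Adora2a was called and fell by 0.35 (adjusted p 0.0376), to a median of 36.0 CPM from 40.7 to 55.1 CPM in the controls, the list's median being -0.14. Without control mouse 2, which had the highest level, its adjusted p was 0.190, and it was called in 4 of the 11 fits that left out 1 mouse. The 5 thalamic markers, led by Rora, summed to 419, 415, 428 and 394 CPM in the controls and to 416, 438 and 442 CPM in the mutators. Their median was 0.03, both tools called 0, 1 had an unadjusted p under 0.05, and Slc17a6 at 0.28 was the lowest in p.

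Use of exons within the 35 genes was compared in the 3 WT/WT controls and the 7 mutators, since control mouse 2 has no exon counts. The files split each gene into bins at the places where annotated exons begin or end. Of 626 bins in the 35 genes, 504 passed the filter, and each was tested against the other bins of its gene. By limma 0 of the 504 bins were called, against 22 of 206930 over all genes, or 0.0106%. An unadjusted p under 0.05 was found for 16 bins, or 3.17%, against 2.65% of all bins, and edgeR called 0 with 17 at an unadjusted p under 0.05, against 48 of 206930 called over all genes, or 0.0232%. Leaving out 1 mouse moved the bins called over all genes between 2, without control mouse 3, and 276, without control mouse 1, while limma called 0 in the 35 genes each time, with 7 to 18 at an unadjusted p under 0.05. The lowest p belonged to bin 10 of Atp1b2 at chr11:69415806-69415832 (NCBIM37), a stretch of 27 bases with 5 to 29 counts per mouse. It took 0.0116%, 0.0376% and 0.0516% of the counts of Atp1b2 in control mice 1, 3 and 4 and 0.0323%, 0.0477% and 0.0837% at the lowest, median and highest mutator. The groups overlapped, and the log2 difference of 1.27 (SE 0.37) had an adjusted p of 0.627.

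Gfap is spliced to forms that differ in the last exon, and the bins separate them. The bin at chr11:102748650-102750035, which is annotated in the transcript Gfap-001 alone, took 32.8%, 31.4% and 33.2% of the Gfap bin counts in control mice 1, 3 and 4. In the mutators it took 31.6% at the lowest, 32.4% at the median and 33.4% at the highest. The bin at chr11:102751480-102752834, annotated in Gfap-201 alone, took 2.11%, 2.02% and 2.44% in the same controls and 1.89%, 2.47% and 2.67% in the mutators. The shares overlapped for these bins, and the lowest p of any Gfap bin was 0.278. Another bin annotated in Gfap-001 alone, at chr11:102750749-102750834 and named after its values were seen, took 6.61%, 6.55% and 6.45% in control mice 1, 3 and 4 and 6.65%, 6.83% and 7.16% at the lowest, median and highest mutator. Its shares did not overlap, and the log2 difference of 0.07 (SE 0.11) had a p of 0.517. Per kb, the first of these bins had 53.6 ± 8.15 CPM per kb (SD, n = 10) and that of Gfap-201 had 3.87 ± 0.677 CPM per kb (SD, n = 10). In Slc1a2, the last bin, of 9041 bases, took between 66.7% and 71.1% of the gene's bin counts.

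Some bins could not receive counts where another gene lies on the opposite strand. For 31 of the 35 genes the number of bins in the files equalled that of the annotation used to place them. In these genes, 13 bins were wholly covered by exons of another gene, and all 13 had 0 counts in each mouse. Of 10 bins covered in part, 1 had 0 counts in each mouse, and of 526 bins not covered, 0 did. The covered bins include 4 bins of Slc7a10 over Lrp3, 7 bins of Slc6a9 over Ccdc24, B4galt2 or Gm17114, and an internal exon of Slc1a2 over Gm13872. The counts of these genes come from their other exons, and the zeros say nothing of the expression of the covered exons.

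Promoter sequences were matched for 29 of the 35 genes in a RefSeq table (GRCm38.p6) with 300 bases around each start. They were searched on both strands for TTCNNNGAA, the core of the sites that STAT factors bind, where N is any base. This motif reads the same on both strands. Some genes have several starts, and the 29 genes have 36 promoters. A match was found in 5 of these 36, those of Acsbg1, Aldoc, Gfap, Ntsr2 and Slc1a3, and in 2726 of 32851 promoters of the table, or 8.30%. The promoters of 6 genes are printed because the results turn on them: the filament gene Gfap at chr11:102897151-102897450 (minus strand), the called genes Acsbg1 at chr9:54661836-54662135 (minus), Serpina3n at chr12:104406458-104406757 (plus), Rlbp1 at chr7:79386978-79387277 (minus) and Slc7a10 at chr7:35186135-35186434 (plus), and Lcn2, whose call depends on 1 control, at chr2:32387690-32387989 (minus). Each is written 5′ to 3′ on the strand of its gene, with a match in capitals. A match is a description of the letters and not a site in use, and the absence of capitals says only that the letters are not in that window.
Gfap: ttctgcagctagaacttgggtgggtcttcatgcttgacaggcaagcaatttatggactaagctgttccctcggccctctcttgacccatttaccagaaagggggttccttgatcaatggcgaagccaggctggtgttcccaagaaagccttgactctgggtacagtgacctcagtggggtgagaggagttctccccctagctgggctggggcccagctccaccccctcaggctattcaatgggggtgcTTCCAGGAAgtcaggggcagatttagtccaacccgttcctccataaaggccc
Acsbg1: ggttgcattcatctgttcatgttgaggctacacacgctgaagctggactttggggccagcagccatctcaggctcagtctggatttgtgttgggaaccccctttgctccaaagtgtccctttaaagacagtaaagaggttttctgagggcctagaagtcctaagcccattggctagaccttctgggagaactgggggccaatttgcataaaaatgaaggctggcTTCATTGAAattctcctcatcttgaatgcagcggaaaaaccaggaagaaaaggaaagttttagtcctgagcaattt
Serpina3n: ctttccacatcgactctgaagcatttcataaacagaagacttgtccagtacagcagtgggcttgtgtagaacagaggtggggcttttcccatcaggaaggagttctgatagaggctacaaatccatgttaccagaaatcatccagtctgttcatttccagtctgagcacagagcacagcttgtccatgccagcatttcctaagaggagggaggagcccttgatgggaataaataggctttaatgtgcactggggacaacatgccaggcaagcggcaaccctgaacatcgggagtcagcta
Rlbp1: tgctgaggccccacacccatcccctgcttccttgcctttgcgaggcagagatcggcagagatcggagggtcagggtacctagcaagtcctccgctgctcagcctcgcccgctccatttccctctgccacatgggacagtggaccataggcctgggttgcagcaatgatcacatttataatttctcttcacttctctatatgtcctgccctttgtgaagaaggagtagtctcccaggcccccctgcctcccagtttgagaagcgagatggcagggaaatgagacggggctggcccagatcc
Slc7a10: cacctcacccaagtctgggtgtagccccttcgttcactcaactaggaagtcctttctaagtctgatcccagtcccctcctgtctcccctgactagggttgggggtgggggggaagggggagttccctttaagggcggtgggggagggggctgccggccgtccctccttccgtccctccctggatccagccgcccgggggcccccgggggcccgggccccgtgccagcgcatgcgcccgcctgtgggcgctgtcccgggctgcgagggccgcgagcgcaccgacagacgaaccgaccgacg
Lcn2: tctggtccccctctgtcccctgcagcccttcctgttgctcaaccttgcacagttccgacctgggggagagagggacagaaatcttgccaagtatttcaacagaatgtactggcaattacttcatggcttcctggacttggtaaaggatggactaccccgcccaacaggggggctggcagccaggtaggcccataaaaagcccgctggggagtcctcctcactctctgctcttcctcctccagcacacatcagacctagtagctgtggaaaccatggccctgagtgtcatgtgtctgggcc
Gfap and Acsbg1 hold 1 match each, while Serpina3n, Rlbp1, Slc7a10 and Lcn2 hold 0. The genes with a match include Gfap and Acsbg1, which lie on opposite sides of 0 in the comparison.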

How the data were processed

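The study measured RNA of 11 mice by sequencing. The authors made the deposited counts per gene and per exon bin, neither normalized, by aligning reads to NCBIM37 with TopHat2 2.0.6 and Bowtie2 2.0.2.0 and counting with HTSeq 0.5.3p9 and the scripts of DEXSeq. Their own gene comparison (DESeq), exon comparison (DEXSeq) and table of read totals were not used. All 11 columns of the gene table and all 10 exon files were used. Depth was taken as the sum of gene counts.

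Gene counts were tested in R 4.3.3 with edgeR 4.0.16 (filterByExpr, TMM factors, robust quasi-likelihood fit, 7 mutators against 4 controls) with Benjamini-Hochberg adjustment over all genes tested and a threshold of 0.05. Each SE is the log2 fold change over the root of its F statistic. Exon bins were tested with voom and diffSplice of limma 3.58.1 in the 7 mutators and 3 WT/WT controls, comparing each bin with the rest of its gene, with reads in no bin, 20.6% to 23.4% of the counts, left out. Both fits were tested on simulated data. Exon lengths, positions and transcripts came from GENCODE M1 (Ensembl 65, NCBIM37), a later release than the one used for counting.

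The alternatives were DESeq2 1.42.0, RLE and upper-quartile factors, filters of none or of a mean count of at least 10, only the 3 WT/WT controls, log2 total count as a covariate, exon bin counts summed per gene, leaving out each mouse in turn, and for bins edgeR's diffSpliceDGE.

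The 35 genes, the lists and the tests were chosen with earlier results of these data known. Values per mouse are given for members called, for the member with the largest absolute log2 fold change in each role, and for the 3 highest per kb. From each list, up to 5 called genes by p, or else the gene of lowest p, are named. Exon bins are named where called, or else the bin of lowest p. Other genes and bins are given for their role or were chosen after their values were seen, as were the lists of neutrophil and of acute-phase and inflammation genes.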

Additional observations from a re-analysis of the deposited data

Results flagged for a closer look

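A mouse is listed here where its gap to the nearest mouse of its group is a large share of the group's whole range, by Dixon's criterion at the 95% level. For independent groups chance gives about 1 in 20, and 17 of the 122 groups examined, those of 61 genes, met the criterion. The genes share the same mice and some were picked for their gap, so the chance rate is no baseline for this number. Of the 17, control mouse 4 accounts for 8, and for 4 of these the gene was itself chosen after its values were seen. No explanation was weighed.

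For control mouse 4, the gap was 0.989 of the range for Lcn2 (12.2 CPM against at most 0.161 in the other controls). It was 0.852 for Osmr (9.05 against at most 4.56 CPM), 0.844 for Aldh1l1 (66.4 against at most 57.2 CPM) and 0.842 for Sphk1 (3.49 against at most 2.99 CPM). Among genes chosen after values were seen, it was 0.992 for S100a9, 0.961 for Ch25h, 0.943 for Lrg1 and 0.906 for S100a8.

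Control mouse 2, the WT/D257A mouse, stood above the other controls by a gap of 0.934 for Mlc1 (184 against at most 169 CPM), 0.907 for Adora2a (55.1 against at most 42.0 CPM) and 0.872 for Opalin (23.7 against at most 22.7 CPM). Control mouse 3 had a gap of 0.849 for Gpc4 (19.1 against at most 17.1 CPM).

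Mutator mouse 3 stood above the other mutators by a gap of 0.736 for Gfap (311 against at most 249 CPM), 0.584 for Slc7a10 (29.7 against at most 24.5 CPM) and 0.571 for S100b (152 against at most 124 CPM). Mutator mouse 4 had a gap of 0.608 for Lcn2 (3.97 against at most 2.26 CPM). Mutator mouse 1 lay below the others by a gap of 0.573 for Clic6 (14.5 against at least 18.9 CPM).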

How the results depend on the processing

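Of the 35 genes, 28 kept the sign of their log2 fold change under every alternative and with every mouse left out. Rlbp1 and Serpina3n were called under all 8 alternatives and in all 11 fits that left out 1 mouse, with log2 fold changes of -0.74 to -0.63 and of 0.41 to 0.49. The alternative with only the 3 WT/WT controls is the same fit as that without control mouse 2, so it is counted in both sets, here and below. Acsbg1 and Slc7a10 were each called under 4 of the 8.

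The number of genes called over the whole table was 615 with DESeq2, 346 with no filter, 50 with the 3 WT/WT controls only and 47 with exon bin counts summed per gene, against 223. The last pair of these fits have fewer controls. Leaving out 1 mouse gave 50 to 412 genes, with the fewest without control mouse 2 and the most without control mouse 1. The number of astrocyte genes called, 4, was 2 with upper-quartile factors, with a mean count of at least 10, with the 3 WT/WT controls only and with exon bin counts summed per gene. DESeq2 called 6 of them, with Gjb6 and Slc1a2 added. Leaving out 1 mouse gave 2 to 6, the most without mutator mouse 3, and DESeq2 gave no adjusted p for Lcn2. The median log2 fold change of the 35 genes lay between -0.07 and -0.01 under all alternatives and mice left out. Astrocyte exon bins called were 0 in limma under each alternative, with 16 of 504 at an unadjusted p under 0.05, and 0 in edgeR.

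Some log2 fold changes changed sign, all but that of Lcn2 without control mouse 4 being far from the threshold. With the 3 WT/WT controls only, Cd44 gave -0.025 and Slc1a3 0.023. With exon bin counts summed per gene, Cd44 gave -0.0080 and Slc1a3 0.016. With log2 total count as a covariate, Lcn2 gave 1.57. Over the fits that left out 1 mouse, the range was -0.025 to 0.14 for Cd44, -0.052 to 0.023 for Slc1a3, -0.95 to 4.75 for Lcn2, -0.0070 to 0.10 for Fgfr3, -0.051 to 0.23 for Thbs4, -0.00076 to 0.037 for Sparcl1 and -0.050 to 0.015 for Aldoc. For Lcn2 without control mouse 4, the removal of that mouse is the cause by construction. For the others the cause was not tested.

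Of 279 log2 fold changes of the 35 genes under the other alternatives, 264 kept direction and side of the threshold, 8 lost the call, 2 gained it and 5 changed sign. With 1 mouse left out, 356 of 385 kept both, 17 lost the call, 2 gained it and 10 changed sign. Each value is counted in 1 class only. Lcn2 without control mouse 4, which also gained the call, is counted among those that changed sign. For the genes named from the lists by their call or lowest p, 150 of 176 values under alternatives kept both. Of the rest, 22 lost the call, 4 gained it and 0 changed sign. With 1 mouse left out, 192 of 242 values of these genes kept both, 42 lost the call, 8 gained it and 0 changed sign. Genes named after their values were seen are not in these counts. Among those, Ch25h had a log2 fold change of -0.42 with all mice and was called higher without control mouse 4. S100a9, Ltf, Lrg1 and Icam1 were also called higher in that fit. Levels per kb under RLE moved by less than 1 SD for all 35 genes.

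The limits lie in 4 controls, 1 of them WT/D257A and 1 apart in inflammatory genes, in bulk tissue where cells cannot be separated, in counts of Lcn2 of 7 or fewer in 3 controls, and in counting that gave no reads to exon bins wholly covered by a gene on the other strand. No paired analysis was possible because no pairs of littermates are given.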
